A study of Gossypium hirsutum with 3 samples.

Results

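The genes described here are 6 transcripts of Upland cotton (Gossypium hirsutum) whose best protein matches place their products in mitochondria or plastids. They are a mitochondrial processing peptidase (TMIRS_064_G08.F), the import protein Tim13 (Contig15430), a prohibitin (Contig3145), a mitochondrial ribosomal protein (TMIRS_103_E11.F), a chloroplast carbonate dehydratase (Contig6943) and a chloroplast inner envelope protein (Contig3898). They were picked by name out of 11143 genes on a custom 2-colour oligonucleotide array because their signal was lower in 10 dpa than in 1 dpa fiber (dpa, days post anthesis), so their ratios are given below as a description and were not tested. The array carries them on 15 probes and 21 spots, of 42034 gene spots in all.

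Each of 3 arrays was hybridized with labelled cDNA of both stages, from field grown plants. RNA of 1 dpa fiber was released by vortexing frozen ovules of pooled bolls with glass beads and removing the intact ovules, and 10 dpa fiber was dissected from the ovule. The methods describe polyribosomal RNA, the messages loaded on ribosomes, whereas the sample labels call it total RNA, and they name the cultivars DES119 and ST4793R without saying which array held which. Arrays are called replicates 1 to 3 here, in no order. On replicates 1 and 3 the 1 dpa cDNA carried Cy3 and the 10 dpa cDNA Cy5, and on replicate 2 the dyes were exchanged. By the RNA codes in the array files, replicates 1 and 2 share their 1 dpa RNA and replicates 1 and 3 their 10 dpa RNA, while the methods speak of biological replications harvested on different days. The spread between arrays, and every p-value below, may therefore be partly technical. Bulk fiber RNA cannot tell fewer cells or organelles from less message per cell.

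Most proteins of mitochondria and plastids are encoded in the nucleus, made on cytosolic ribosomes and imported. Imported mitochondrial proteins pass the outer membrane, are guided across the intermembrane space by small Tim proteins or drawn through the inner membrane, lose their targeting peptide to the processing peptidase, and are folded by chaperonins. A few respiratory subunits are instead made inside the organelle on ribosomes of bacterial type, whose proteins mostly come from the nucleus. Plastids of non-green cells such as fiber make fatty acids, starch and amino acids. Upland cotton is an allotetraploid, so most genes exist as 2 similar copies, and which copy a probe detects was not analysed here.

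On each array the signal of all 6 genes, normalized, was lower at 10 dpa than at 1 dpa, which held for 20.1% of the genes on the array. All 6 were at least 2-fold lower on the mean, as were 1.98% of all genes, or 1.97% when all 3 arrays also had to be below 0. The choice of the genes used this contrast, so nothing is read from these shares. Over single spots, 61 of 63 normalized ratios were below 0, and in the uncorrected signals 60 of 63 were. Spots of a gene share its RNA and are not replicates. The lowest spot of the 6 genes had 2.35 times the signal of the 95th percentile of the negative controls in 1 dpa fiber and 1.67 times in 10 dpa fiber, both on replicate 1 for the carbonate dehydratase. The brightest had a signal of 17813, so no spot was saturated.

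**Figure D1:**
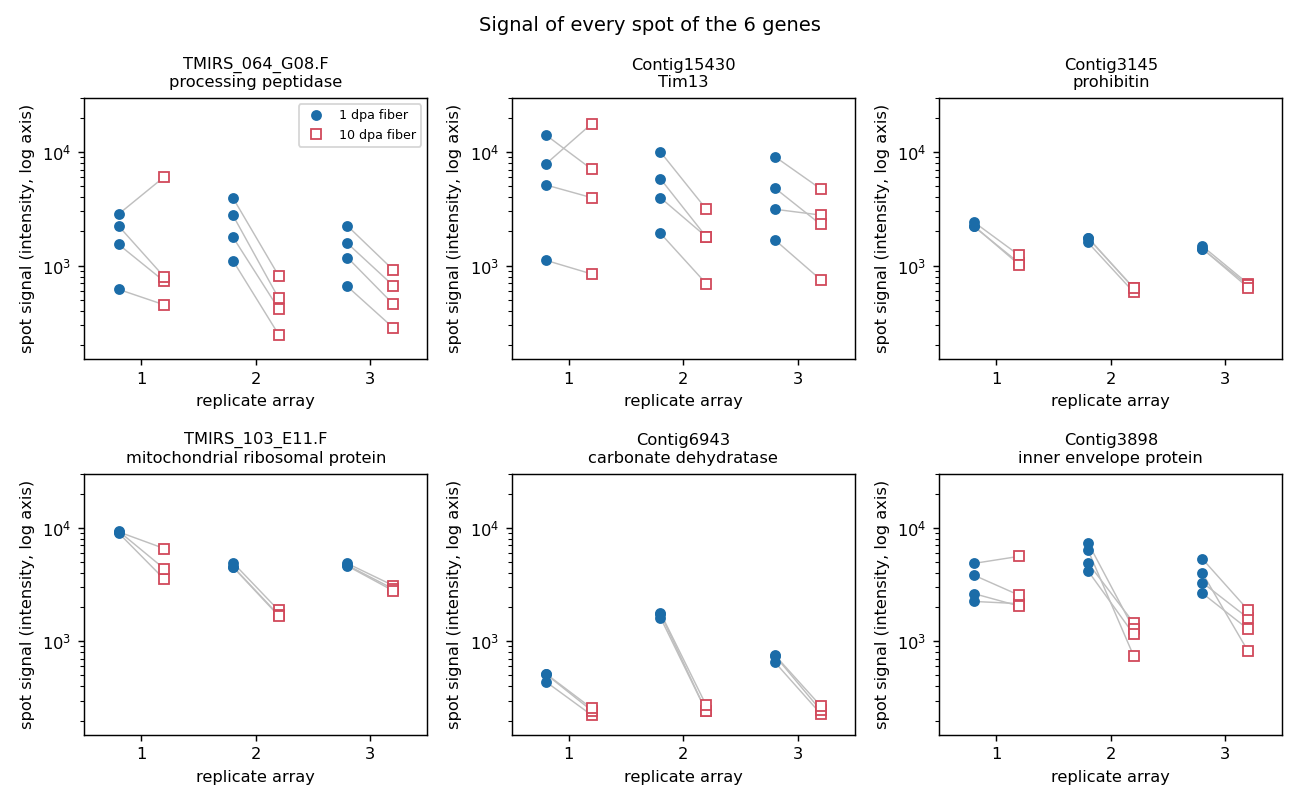
Signal of each spot (intensity, log axis, no background subtraction) of the 6 genes on each replicate array. Filled circles are 1 dpa fiber, open squares 10 dpa fiber, and a grey line joins the channels of a spot. Of 63 lines 60 go down, and the 3 that rise are all on replicate 1.

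The mitochondrial processing peptidase, the enzyme that cuts the targeting peptide from imported proteins, had 4 different probes. Replicates 1, 2 and 3 gave log2 ratios (10 dpa over 1 dpa fiber) of -0.92, -1.86 and -1.51, averaging -1.43 ± 0.48 (SD, n = 3 arrays) or 2.70-fold lower in 10 dpa fiber. On replicates 2 and 3 the probes lay close together, from -2.01 to -1.72 and from -1.59 to -1.37. On replicate 1 they ranged from -1.95 to 0.36. Probe 3 stood apart there, with a signal of 2838 in 1 dpa fiber and 6056 in 10 dpa fiber, whereas replicate 2 read 2769 and 514 and replicate 3 read 1571 and 667. The standard deviation over the 4 probes on replicate 1 was 1.01, at percentile 96.4 of the genes with 4 probes on that array, and 0.12 and 0.10 on replicates 2 and 3.

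Tim13 is a small chaperone of the intermembrane space that, in yeast, works in a complex with Tim8. Its ratios were -0.91, -0.99 and -1.20 on replicates 1 to 3, and their mean of -1.03 ± 0.15 (2.04-fold lower) had the smallest spread between arrays of the 6 genes. Its 4 probes agreed less well than its arrays did. Probe 1 was the least negative on each array, at 0.21, -0.63 and -0.54, while probe 4 gave -1.95, -1.10 and -1.39. Probe 1 on replicate 1 held the brightest spot of the whole set, 17813 in 10 dpa fiber against 7877 in 1 dpa fiber. The same probe read 1793 against 3961 on replicate 2 and 2786 against 3135 on replicate 3. Of the 6 genes, Tim13 alone is not listed for this comparison in the additional file of the study.

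The prohibitin, of a family that forms ring complexes in the mitochondrial inner membrane, was measured by 1 probe spotted 3 times. Its signal was 2303 ± 113 (SD, 3 spots) in 1 dpa fiber and 1098 ± 115 in 10 dpa fiber on replicate 1. Replicate 2 read 1704 ± 92.4 and 617 ± 29.4. Replicate 3 read 1432 ± 45.1 and 668 ± 25.8. In every array all 3 spots of 1 dpa fiber were brighter than all 3 spots of 10 dpa fiber. For how many of the 831 probes spotted 3 times the spots separate in this way was not counted, so nothing is read from it. After normalization the log2 ratios were -1.56, -1.06 and -1.37, a mean of -1.33 ± 0.25 (n = 3 arrays). The spots of an array differed by a standard deviation of 0.01 to 0.07 on this scale, so the spread lay between arrays and not between spots.

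The mitochondrial ribosomal protein, named for its similarity to a yeast protein, also had 1 probe spotted 3 times. Its signals in 1 dpa fiber were 9193 ± 175, 4662 ± 231 and 4712 ± 124 (SD, 3 spots) for replicates 1 to 3. In 10 dpa fiber they were 4810 ± 1571, 1747 ± 107 and 2928 ± 158. The groups of spots did not overlap on any array, but how often this holds for other probes spotted 3 times was not counted. On replicate 1 the 3 spots of the same probe gave 3519, 4352 and 6560 in 10 dpa fiber. The normalized ratios were -1.85, -0.90 and -1.08, with a mean of -1.28 ± 0.51. On replicate 1 its spots differed by a standard deviation of 0.41, against a median of 0.14 over the 831 probes spotted 3 times, and on replicates 2 and 3 by 0.02 and 0.04.

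Carbonate dehydratase (carbonic anhydrase), which interconverts carbon dioxide and bicarbonate, had the lowest mean ratio of the 6 genes. Its probe, again spotted 3 times, gave 489 ± 43.6 in 1 dpa fiber and 241 ± 17.0 in 10 dpa fiber on replicate 1. Replicate 2 gave 1715 ± 87.5 and 252 ± 18.3. Replicate 3 gave 719 ± 56.7 and 249 ± 20.0. The uncorrected 10 dpa signal was thus nearly the same on every array, and the 1 dpa signal differed. The negative controls differed between arrays too. The lowest 10 dpa spot had 1.67, 2.55 and 3.23 times their 95th percentile on replicates 1 to 3, and the lowest 1 dpa spot 2.35, 21.6 and 7.09 times. A steady level at 10 dpa is therefore not shown. Replicates 1 and 2, which share the 1 dpa RNA code, read the 1 dpa signal in opposite dyes. The log2 ratios of -1.04, -2.46 and -1.70 (2.06-fold, 5.50-fold and 3.24-fold lower) average -1.73 ± 0.71, the widest spread of the set.

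The chloroplast inner envelope protein belongs to the membrane that separates the stroma from the cytosol and holds the metabolite exchangers. Replicates 1 to 3 gave -0.85, -1.81 and -1.82, averaging -1.49 ± 0.56 or 2.82-fold lower in 10 dpa fiber. All 4 probes were below 0 on every array after normalization. Here the probes differed more on the arrays where most genes' probes agreed. Probe 2 gave -2.63 and -2.62 on replicates 2 and 3 and -0.94 on replicate 1, while probe 4 gave -1.37, -1.38 and -1.26. The standard deviation over probes was 0.64 on replicate 2 and 0.58 on replicate 3, at percentiles 97.0 and 95.5 of the genes with 4 probes, and 0.31 on replicate 1, at percentile 27.0.

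**Figure D2:**
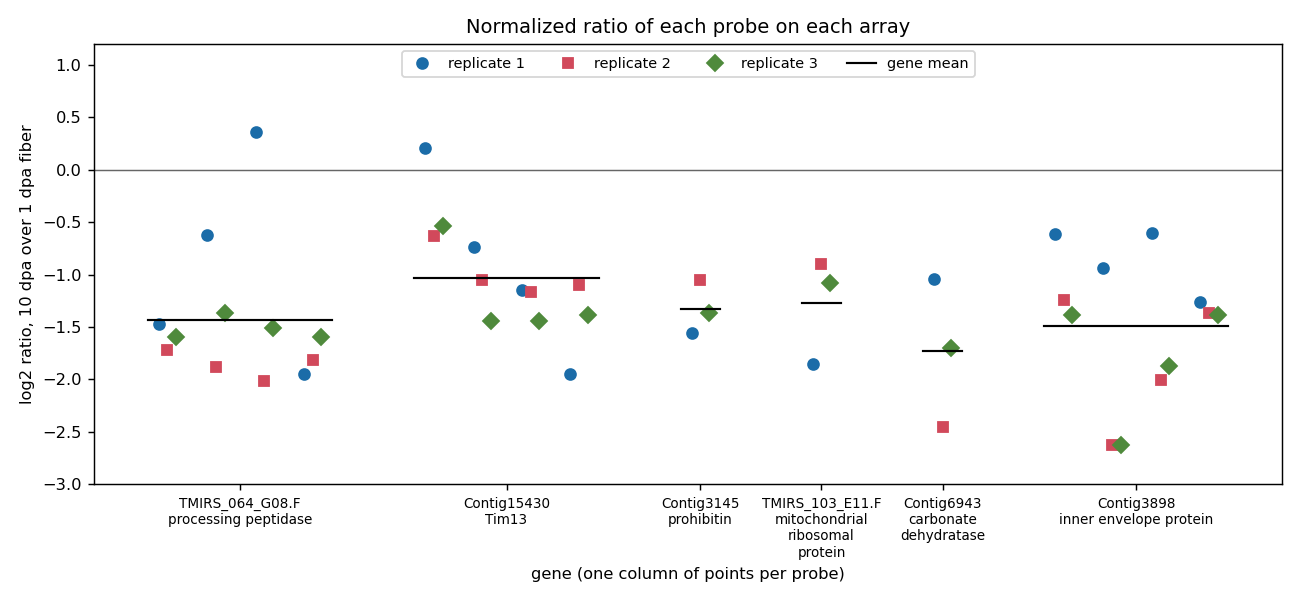
Normalized log2 ratio of 10 dpa over 1 dpa fiber for each probe of the 6 genes, with 1 point per array (the mean of 3 spots where a probe was spotted 3 times) and a line at the gene's mean. The points of replicate 1 scatter most for the processing peptidase and Tim13, with 1 probe of each above 0.

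The arrays differed in how well probes of a gene agreed. On replicate 1, 34.4% of the 8604 genes with 4 probes had a probe more than 1 log2 unit from the median of the others, against 5.17% on replicate 2 and 5.61% on replicate 3. The log2 ratios of all genes correlated with r = 0.839 between replicates 2 and 3 and with r = 0.575 and r = 0.601 between replicate 1 and each of them, across 11143 genes that are not independent. Without replicate 1 the mean ratios of the 6 genes ran from -2.08 for carbonate dehydratase to -0.99 for the mitochondrial ribosomal protein. Benchmark genes of young fiber on the array, namely a tubulin (GhBM356393), GhSCP, GhRDL, GhFDH and GhACY, had a spot above the 95th percentile of the negative controls in both stages on all 3 arrays. By array and stage, 81.2% to 92.2% of all gene spots were above that level, so this tells little of the tissue. Their mean log2 ratios were, in the same order, 2.65 ± 0.30, 0.77 ± 0.23, 0.82 ± 0.24, -0.85 ± 0.40 and -0.04 ± 1.17 (SD, n = 3 arrays).

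The 6 genes differed in how the arrays ranked them. The processing peptidase, Tim13, carbonate dehydratase and the inner envelope protein had their least negative ratio on replicate 1, and the prohibitin and the mitochondrial ribosomal protein had their most negative ratio there. Taken as 3 ratios each, the processing peptidase and the inner envelope protein lay closest together (Euclidean distance 0.31 log2 units) and the mitochondrial ribosomal protein and carbonate dehydratase farthest apart (1.87). On the mean, carbonate dehydratase was at percentile 0.33 of all genes and Tim13 at percentile 1.87, which are the lowest and the highest places of the 6.

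**Figure D3:**
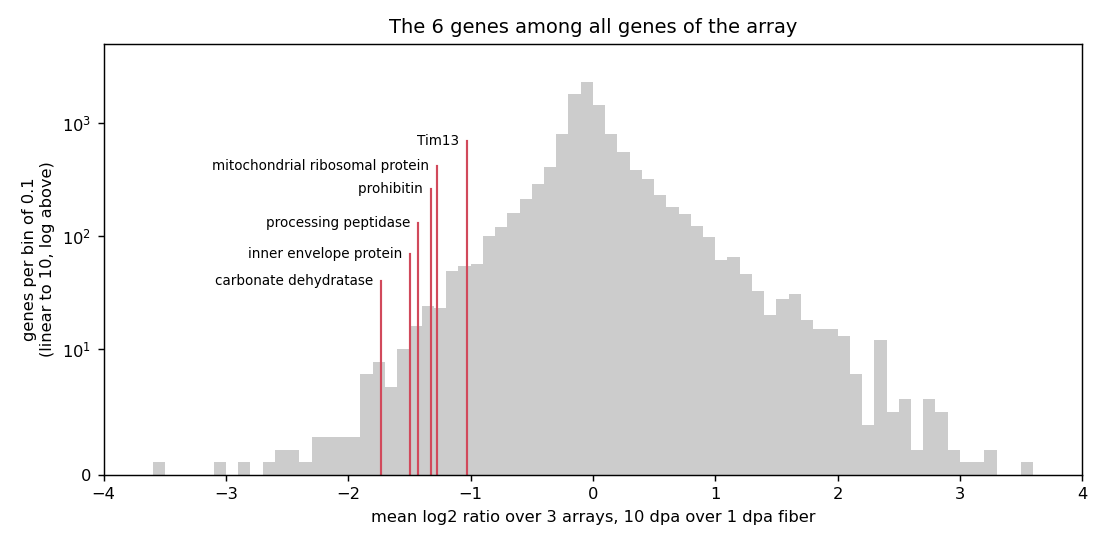
Number of genes of the array (grey bars, bins of 0.1; axis linear to 10 and logarithmic above) by mean log2 ratio of 10 dpa over 1 dpa fiber, with red lines at the 6 genes. Line heights only separate the labels. The genes lie between -1.73 and -1.03, in the lower tail they were chosen from.

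Among 613 other genes with a strong match in the study's additional file, those with the most similar ratios over the 3 arrays were looked up for each of the 6 genes. Nearest to Tim13 were the ribosomal proteins S19 (Contig2886, distance 0.08) and L8 (Contig3832, 0.19), and nearest to the prohibitin were the ribosomal protein L37a (Contig16184, 0.07) and an L7Ae-like ribosomal protein (Contig10450, 0.28). The latter was also second nearest to the mitochondrial ribosomal protein (0.37), after a GNS1/SUR4 family protein (Contig3233, 0.36), a family that elongates fatty acids in yeast. The processing peptidase lay nearest to methylenetetrahydrofolate dehydrogenase (Contig12930, 0.15), an enzyme of folate metabolism, and to an acetyl-CoA carboxylase (0.17), which starts fatty acid synthesis. The inner envelope protein lay nearest to a histidinol-phosphate transaminase (TMIRS_147_D12.F, 0.06) and an acetylornithine aminotransferase (Contig15903, 0.27), enzymes of histidine and arginine synthesis. Carbonate dehydratase had a hydroxysteroid dehydrogenase-like gene (Contig6899, 0.35) and an AMP-binding protein-like gene (Contig13496, 0.36) as its neighbours. With 3 ratios a gene, such nearness is a description only. The 613 candidates come from a file restricted to changed genes. Among those increased in fiber initials over ovules, the paper reports an excess of ribosomal genes. The share of ribosomal proteins among the 613 was not counted, so nothing is read from how often they appear as neighbours.

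Another 36 genes of the array are described in the additional file as mitochondrial, as plastid, or as of a kind known from these organelles. By the paper's account that file is restricted to genes that changed more than 2-fold in either of its comparisons. The 36 are therefore not all organelle genes of the array. In the fit over all genes limma put 11 of the 36 lower and 8 higher in 10 dpa fiber (adjusted p under 0.05), and 17 did not pass. The median log2 ratio of the 36 was -0.20, against -0.04 for all genes tested, of which 5.61% fell and 8.03% rose. A list drawn from genes already found to change is likely to hold more calls than the whole array, so nothing is read from this difference. Of the 36, 15 were listed in the additional file for this comparison on these samples, and all 15 of them passed (7 lower and 8 higher), which is not independent evidence. Among 21 genes that the file lists for the ovule comparison alone, 4 fell (19%), 0 rose and 17 did not pass, with 10 lower and 2 higher at an unadjusted p under 0.05. Whether the file lists these 21 for the ovule comparison, which also involves 1 dpa fiber, was not checked. With median centring in place of loess, limma called 0 of these 21 in either direction (2 lower and 2 higher at an unadjusted p under 0.05), and 5 of the 36 fell and 8 rose. Scaling between arrays and an F-test without moderation left 0 calls among the 36 (at an unadjusted p under 0.05, 17 lower and 10 higher, and 10 lower and 8 higher). The 7 weak matches (expect value above 1e-05) gave 5 of the 8 rises, and among the other 29 genes 11 fell and 3 rose.

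Genes of mitochondrial import and folding outside the 6 gave 2 falls and 0 rises of 3. Tim9 (Contig16175), which in yeast escorts carrier proteins across the intermembrane space, had log2 ratios of -0.99, -1.26 and -1.77 on replicates 1 to 3. It fell 2.53-fold (mean -1.34 ± 0.40, adjusted p = 0.00618 from limma). The chaperonin Cpn60 (Contig10074), which folds imported proteins, gave -0.85, -0.91 and -0.85 and fell 1.83-fold (adjusted p = 0.00694 from limma). TIM22 (Contig1634), the inner membrane insertase that receives carriers from the small Tim proteins, did not pass, at -0.13 ± 0.23. The additional file lists Tim9 and Cpn60 for this comparison but not TIM22.

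Of 14 genes of respiration and carriers, 3 fell, 4 rose and 7 did not pass. A cytochrome c oxidase subunit (Contig16115), of the last complex of the respiratory chain, was lower on all arrays at -0.69, -0.71 and -1.20 and fell 1.83-fold (adjusted p = 0.0153 from limma). The nucleotide translocator Contig4569, which exchanges ADP for ATP across the inner membrane, fell 1.55-fold (-0.63 ± 0.25, adjusted p = 0.0355 from limma). On replicate 1 its brightest 10 dpa spot had 488.26 times the 95th percentile of the negative controls. The brightest 10 dpa spots of GhSCP and GhRDL also had 488.26 times, at their lowest over the arrays. Whether this level is the scanner's upper limit, which would make the ratio too low, was not tested. Saturation was looked at only for the 6 genes. Contig2726, matched to a potential mitochondrial protein of Candida albicans named Fmp16, fell 2.59-fold. The call for Contig16115 ended without replicate 3 (-0.70) and with median centring (-0.62). The call for Contig4569 ended with median centring (-0.30), with a dye term (-0.56), without the array as block (-0.63), without replicate 1 (-0.55) and without replicate 3 (-0.58). An NADH-ubiquinone oxidoreductase-related gene (Contig16771) had -0.47 ± 0.18, the alpha subunit of NAD-dependent isocitrate dehydrogenase (Contig311) -0.18 ± 0.37, a second adenine nucleotide translocator -0.15 ± 0.36 and an uncoupling protein -0.02 ± 0.18, and none of them passed. The 4 rises, from 1.87-fold to 2.83-fold, were all weak matches (Contig61, TMIRS_046_E11.F, Contig2667 and Contig15067), so their place in mitochondria rests on little sequence similarity. These 4 genes and Contig2726 are listed for this comparison in the additional file, so their calls are not independent evidence. Contig16115 and Contig4569 are not listed for it. None of the 4 genes of the pyruvate dehydrogenase complex, which feeds the citric acid cycle in mitochondria and fatty acid synthesis in plastids, passed in limma or by the F-test without moderation, although 2 were lower and 0 higher in limma before adjustment (p under 0.05). One of them, an acetyltransferase (Contig10276), fell without replicate 1 (-0.52). Their log2 ratios ranged from -0.52 to 0.27.

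Organelle-type translation outside the 6 gave 2 falls and 1 rise of 4. The bacterial-type ribosomal proteins S9 and L9 (Contig1429 for L9) fell 1.90-fold and 2.15-fold (adjusted p = 0.0177 and 0.0146 from limma), with ratios of -0.52, -1.22 and -1.03 for S9 and -0.58, -1.41 and -1.33 for L9. Both calls ended with median centring (-0.80 and -1.05). The elongation factor Ts (Contig16172), which recharges elongation factor Tu, gave 0.05, -0.99 and -0.91 and did not pass (adjusted p = 0.144 from limma), while it did without replicate 1 (-0.95) and with a dye term (-0.71). A glutamyl-tRNA(Gln) amidotransferase (Contig15873), of the route by which plant organelles make glutaminyl-tRNA, had 2.94, 3.34 and 3.53 and rose 9.66-fold, opposite in direction to the ribosomal proteins. L9 and the amidotransferase are listed for this comparison in the additional file, so their calls are not independent evidence. S9 and the elongation factor are not listed for it.

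Of 11 plastid genes outside the 6, 4 fell, 3 rose and 4 did not pass. An acyl carrier protein (Contig15454), of the kind that holds the growing chain in fatty acid synthesis, fell 2.63-fold (-1.22, -1.24 and -1.74, adjusted p = 0.00336 from limma). Glutamate-1-semialdehyde aminotransferase (Contig13145), of the pathway to heme and chlorophyll, fell 2.23-fold, and a phosphate/phosphoenolpyruvate translocator (Contig2502), which carries phosphoenolpyruvate into plastids, 2.07-fold. Plastidic 6-phosphogluconate dehydrogenase (Contig4213), which makes NADPH, fell 1.60-fold (-0.68 ± 0.33, adjusted p = 0.0397 from limma). That call ended without replicate 3 (-0.49), without the array as block (-0.68) and with median centring (-0.45), and the call for Contig13145 ended with median centring (-1.07). Starch branching enzyme I (Contig2425) went the other way and rose 2.64-fold. Granule-bound starch synthase (Contig4287), which makes amylose, had 1.29, 0.36 and 0.56 and did not pass (adjusted p = 0.0634 from limma). It passed without replicate 1 (0.46), without replicate 2 (0.92) and without replicate 3 (0.83), where 2 arrays remain, and also with a dye term (0.64) and with the filter on dim probes (0.74). Fits on 2 arrays or with a dye term rest mostly on the spread pooled across genes, so passing there is weak evidence. The stromal ascorbate peroxidase Contig4218, which removes hydrogen peroxide, had -0.64 ± 0.39 and passed without replicate 1 (-0.86) and with a dye term (-0.71). A photosystem I gene (Contig1440, a weak match) rose 4.69-fold with ratios of 1.73, 2.17 and 2.79, opposite to both plastid genes of the 6. The nucellin-like gene TMIRS_185_D11.F, described as a nucleoid DNA-binding protein, rose 2.30-fold. Its place in plastids rests on that description alone. In 1 dpa fiber its brightest spot had only 3.58, 3.07 and 2.65 times the 95th percentile of the negative controls on replicates 1 to 3. All plastid genes that passed, except Contig4213, are listed for this comparison in the additional file, so their calls are not independent evidence.

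**Figure D4:**
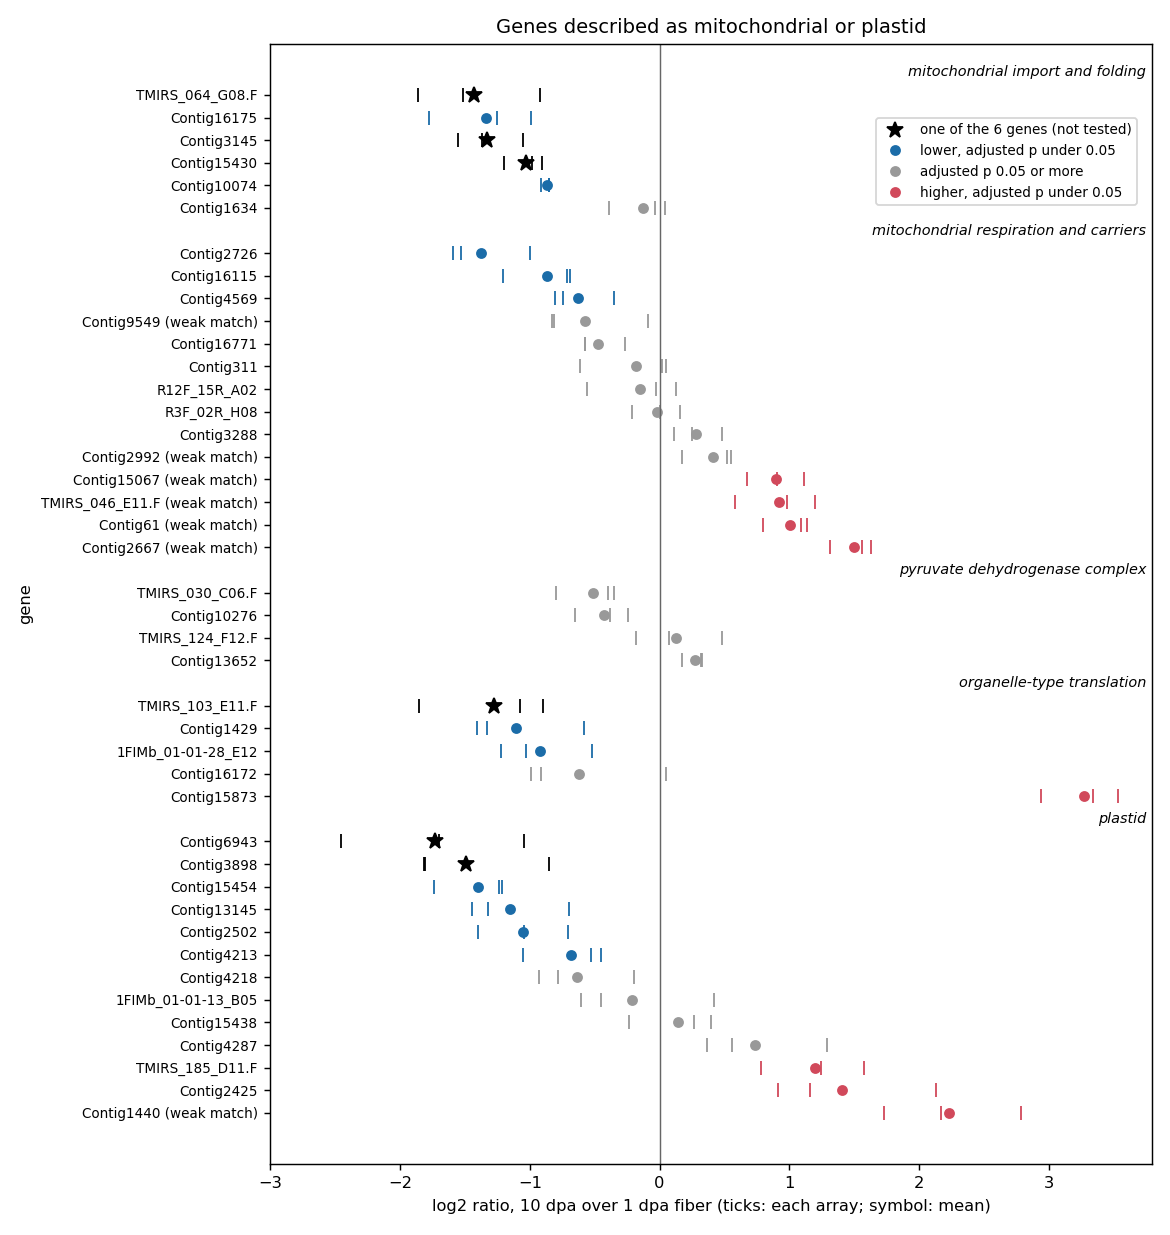
Log2 ratio of 10 dpa over 1 dpa fiber on each array (ticks) and its mean (symbols) for the 6 genes (black stars, not tested) and 36 other genes described as mitochondrial or plastid. Blue marks 11 genes that fell and red 8 that rose (limma, adjusted p under 0.05), and grey 17 that did not pass. Of the red ones 5 are weak matches.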

How the data were processed

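The authors' scanner files (Agilent Feature Extraction, version not given in the sources used here) hold, per channel, mean spot intensity and local background intensity on a linear scale, deposited without background subtraction or dye normalization. A deposited table of values whose identifiers match no probe was not used. Background was handled by normexp in limma (offset 50). Loess then removed dye bias array by array, and the 2256 control spots carried no weight in it. Values were averaged from spots to probes and from probes to genes, the sign of the dye swap was turned, and the mean log2 ratio was set against 0 with lmFit and eBayes (R 4.3.3, limma 3.58.1), with p-values adjusted by the Benjamini-Hochberg method over 11143 genes (threshold 0.05). The negative controls numbered 314. The procedure was tested on simulated ratios.

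The 6 genes and the gene lists were chosen with earlier results of these data known. The named genes are the 6, the members of the lists, the 2 nearest genes of each of the 6, and benchmark genes. Gene names come from best matches in the study's additional file, whose values were not used except to mark which genes it lists for this comparison. The study's own ANOVA also needs arrays with ovule cDNA, not analysed here. As alternatives, background correction was left out, loess was replaced by median centring, arrays were also scaled to each other, dim probes were dropped, probes were combined by their median, a dye effect was fitted, channels were fitted with no array block (after A-quantile normalization), an F-test was run without moderation, and each replicate was left out. The number of arrays limits the precision, and probe sequences were not analysed here.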

Additional observations from a re-analysis of the deposited data

How the results depend on the processing

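The mean log2 ratios of the 6 genes were negative under every alternative tried, and moved by less than 1 SD between arrays in all but 1 of them, median centring for Tim13 (-0.81 against -1.03). Leaving out 1 replicate gave -1.69 to -1.22 for the processing peptidase, -1.09 to -0.95 for Tim13, -1.46 to -1.21 for the prohibitin, -1.47 to -0.99 for the mitochondrial ribosomal protein, -2.08 to -1.37 for carbonate dehydratase and -1.81 to -1.33 for the inner envelope protein. Over all genes, limma called 895 higher and 625 lower at 10 dpa (58.9% higher). Median centring gave 512 and 191 (72.8% higher), leaving out replicate 1 gave 979 and 1212 (44.7% higher), leaving out replicate 2 gave 912 and 448 (67.1% higher), and the channels without the array as block gave 547 and 402. Leaving out 1 replicate gave 803 to 979 higher and 447 to 1212 lower genes. The p-values of these fits on 2 arrays, and of the fit with a dye term, rest mostly on the spread pooled across genes. Calls gained in them are weak evidence. Of the 36 other organelle genes, 5 in place of 11 fell with median centring. Scaling between arrays left 0 genes past the adjusted p in either direction, over all genes and among the 36 (1531 higher and 1168 lower over all genes, and 10 and 17 of the 36, at an unadjusted p under 0.05 from limma). The F-test without moderation also left 0 (1008 and 803, and 8 and 10 of the 36, at an unadjusted p under 0.05). The ratios pair both stages within each array, and the labels give no replicate numbers for a further block. Among the 6 genes, the carbonate dehydratase on replicate 1 was the measurement nearest to the negative controls.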
